A study of Arabidopsis thaliana with 30 samples.

Results

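The accessible chromatin of 10 core circadian clock genes of Arabidopsis thaliana was described across 30 ATAC-seq peak lists. ATAC-seq marks open chromatin by the insertions of Tn5 transposase into nuclear DNA. The genes were CCA1 (AT2G46830), LHY (AT1G01060), TOC1 (AT5G61380), PRR5 (AT5G24470), PRR7 (AT5G02810), PRR9 (AT2G46790), ELF3 (AT2G25930), ELF4 (AT2G40080), LUX (AT3G46640) and GI (AT1G22770). A peak belonged to them when it overlapped a gene or the 1000 bp on either side of it, which 507 of 734458 peaks did. Peaks of all lists were joined into 301-bp sites centred on summits, and 24 of the 42611 sites lay at the 10 genes.

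Each of 15 groups had 2 libraries. Col-0, the wild type, was sampled as root, stem and shoot. The 12 mutant genotypes were all sampled as shoots: ros1-4, rdd-2, drdd, met1-9, nrpd1-3, nrpd1-3 ros1-4, gcn5, gcn5 ros1-4, hda6, hda6 ros1-4, sdg2-4 and sdg2-4 ros1-4. ROS1 is a DNA glycosylase that removes 5-methylcytosine. The names rdd and drdd are used for plants that lack ROS1 together with its relatives DML2 and DML3, and DME as well in drdd, although the labels do not spell this out. MET1 maintains CG methylation, NRPD1 is the catalytic subunit of polymerase IV, which starts RNA-directed DNA methylation, GCN5 is a histone acetyltransferase, HDA6 a histone deacetylase and SDG2 a histone H3 lysine methyltransferase. Shoots and roots came from plants 2 weeks of age and stems from plants 4 weeks of age, kept in 16 h of light and 8 h of dark. The hour of collection is not given in the sources used here, so for genes whose activity follows the time of day, organ or genotype and hour of collection cannot be told apart. The peak names of met1-9 carry the word leaf and another library prefix, while its label says shoot.

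The plant clock is a set of transcriptional repressors that act one after another through the day. CCA1 and LHY are MYB factors that peak around dawn and repress evening genes. PRR9, PRR7, PRR5 and TOC1 are pseudo-response regulators that follow in that order and repress CCA1 and LHY, in part through co-repressor complexes with histone deacetylases. ELF3, ELF4 and LUX form the evening complex, which represses PRR9, PRR7, GI and LUX itself at night, and GI is an evening protein that stabilises the F-box protein ZTL and promotes flowering.

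The lists held 17315 to 38392 peaks. The most common background of a list, recovered from fold and p, was between 5.17 fragments in ros1-4 replicate 2 and 32.5 in gcn5 replicate 2. It was 6.60 and 8.48 in the Col-0 shoots, so weaker peaks could enter the gcn5 lists. In all 30 lists 12881 sites had a peak. Library numbers in the peak names differed between groups: 26 to 43 for Col-0 shoot, the demethylase mutants, nrpd1-3 and nrpd1-3 ros1-4, 50 to 65 for root, stem and the hda6 and sdg2-4 lines, and 68 to 79 for met1-9 and the gcn5 lines. Whether these numbers mark batches is not stated, and comparisons across them have no value within one range. Among the organ markers looked at, the root hair gene RHD6 had a peak in both root libraries and in none of the other 28. The shoot gene LHCB1.3 had a site with a peak in 28 libraries and in neither root library. Others were less specific. The root gene CASP1, the stem gene MYB58 and the shoot gene RBCS1A each had a site with a peak in all 30 libraries. The stem gene KNAT1 had a peak in both stem and both root libraries. The silenced gene FWA had a peak only in the 2 met1-9 libraries.

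ELF3 lacked any peak in rdd-2 replicate 1, and each of the other genes had at least 1 peak in every library. Of the 24 clock sites, 13 (54.2%) had a peak in all 30 libraries, against 30.2% of all 42611 sites. At 29 other clock genes 30 of 67 sites (44.8%) did so. LHY had 3 such sites, TOC1 and PRR9 had 2 each, and ELF3 had none. The strength of a peak was read from its fold, the deposited ratio of stacked fragments at the peak's summit to the background around it. Because folds depend on depth, libraries were compared by relative rank, the percent of the 12881 common sites with a lower fold in the same list. Bulk nuclei were profiled, so more cells with an open site and a more open site in each cell cannot be told apart.

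**Figure D1:**
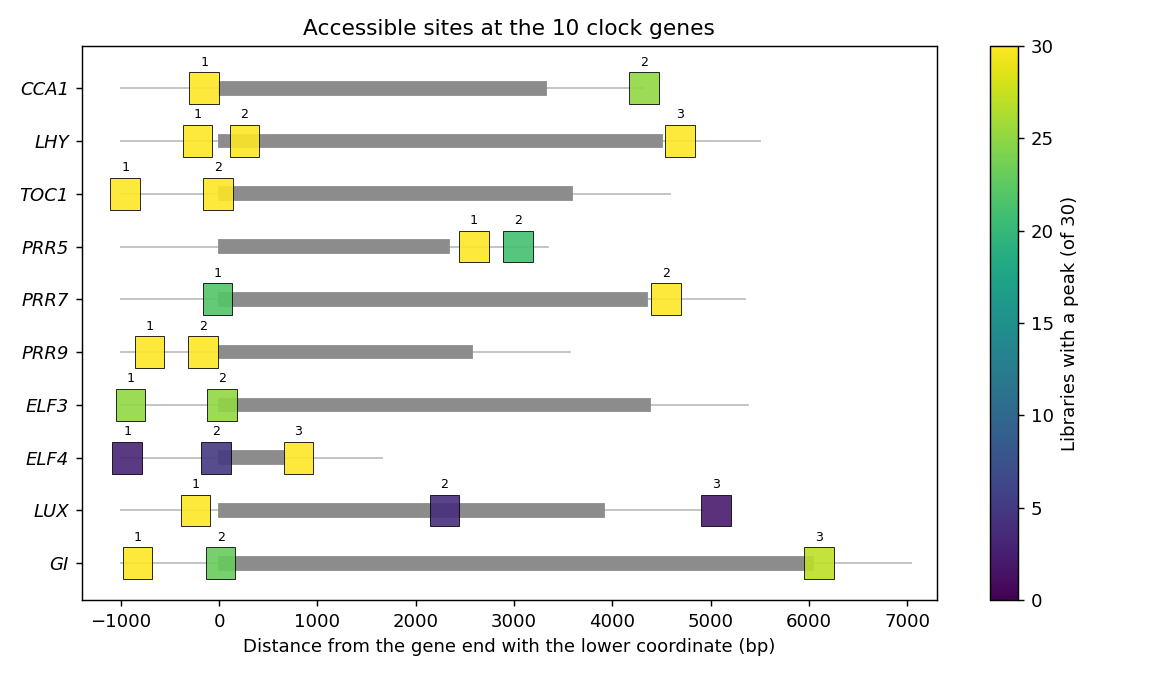
Sites (boxes, 301 bp, to scale, numbered from the lower coordinate) on the 10 clock genes (grey bars), with position on the horizontal axis as distance in bp from the gene end with the lower coordinate and colour for the number of the 30 libraries with a peak. The 13 sites open in all 30 libraries lie outside the gene or within 257 bp of its end, and LUX sites 2 and 3 and the first 2 sites of ELF4 were open in 5 libraries or fewer.

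The level of openness differed strongly between the genes, as described by the strongest site of each. PRR7 site 2 was highest, with a lowest, median and highest relative rank of 97.5, 99.4 and 99.8 over 30 libraries. It lay at chromosome 5, positions 642079 to 642379 (TAIR10, as all coordinates here), beyond the higher-coordinate end of the gene and 171 bp from a tRNA gene, AT5G02815. GI site 1 followed with 91.9, 98.4 and 99.6, then LHY site 3 with 92.0, 97.0 and 99.1. TOC1 site 2 had 89.9, 96.9 and 99.1, CCA1 site 1 had 80.6, 94.5 and 98.5, and ELF4 site 3 had 73.8, 88.4 and 97.8. These top 6 genes span morning, day and evening roles, and the ranges of neighbours in this order overlapped throughout. LUX site 1 ran lower, at 49.6, 69.6 and 93.1, next to PRR5 site 1 at 40.0, 64.5 and 74.5. ELF3 site 1, at 5.01, 64.4 and 90.6 over the 25 libraries with a peak, had the widest spread, with an SD of 24.4 percent against 0.589 at PRR7 site 2. PRR9 site 2 was the lowest by median, at 32.6, 54.7 and 80.3. For PRR5, site 2 has the higher median fold but holds its own summit in 1 of 21 libraries and otherwise takes its value from the site 1 peak, so site 1 stands for the gene, a choice made after its values were seen.

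The weaker sites were smaller and less regular. CCA1 site 2, beyond the higher-coordinate end of CCA1 and 3 bp from DUF4, had a peak in 25 libraries with folds from 2.59 to 6.22 (median 4.06). It was listed in neither nrpd1-3 library and in 1 of the 2 libraries of stem, drdd and Col-0 shoot. GI site 2 and GI site 3, at the 2 ends of the gene, were found in 23 and 27 libraries, with median folds of 4.20 and 3.90 against 15.8 at GI site 1. LHY site 1 held its own summit in 1 of 30 libraries, so it and LHY site 2 are mostly a single wide peak across the lower-coordinate gene end. The 2 PRR9 sites likewise had equal folds wherever 1 peak spanned both, and PRR9 peaks had the largest median width, 862 bp, against 270.5 bp at ELF3.

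**Figure D2:**
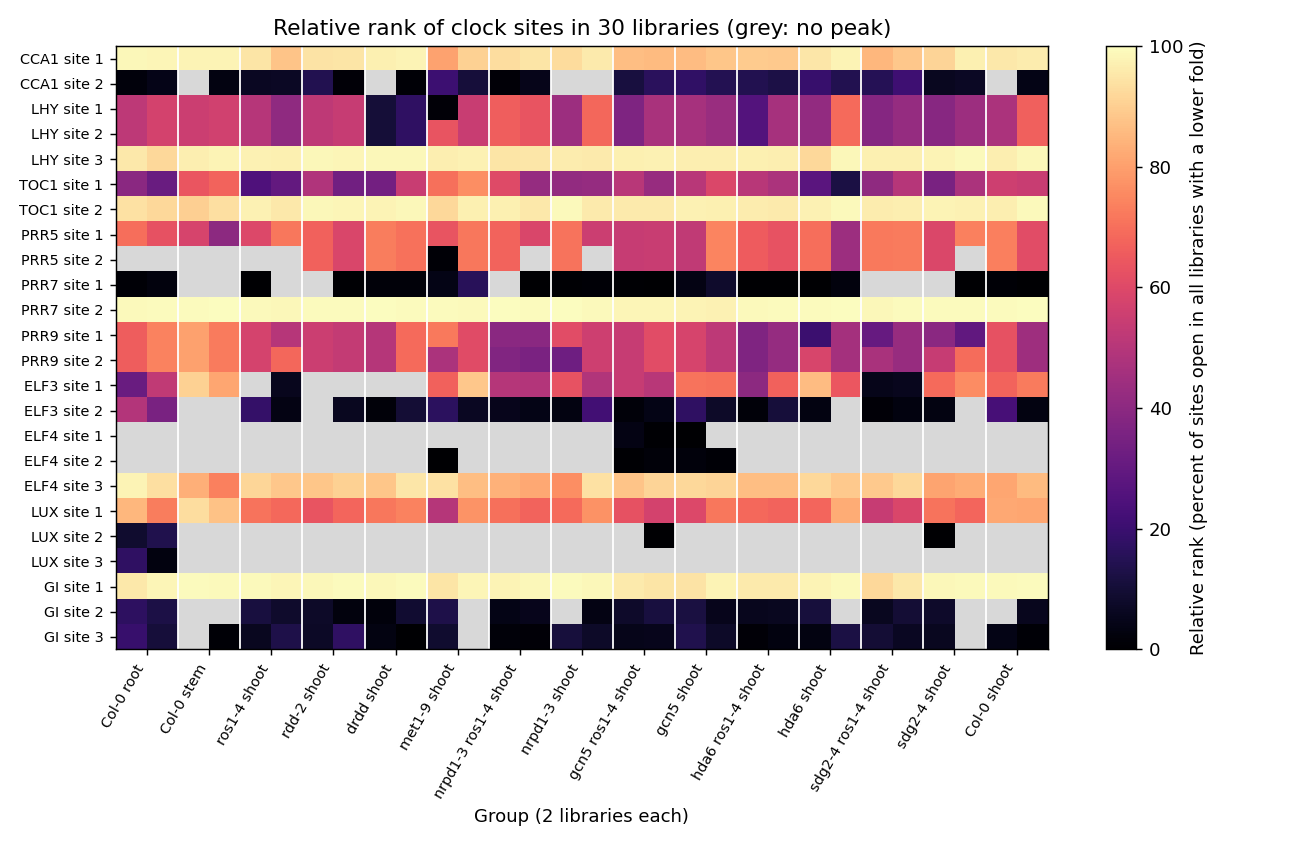
Relative rank in percent (colour) of the 24 clock sites (rows) in 30 libraries (columns, 2 per group, Col-0 shoot last), with grey where no peak was listed. The strongest sites of PRR7, GI, LHY and TOC1 stay near the top of every list, while ELF3 site 1 is grey in 5 libraries, all of them ros1-4, rdd-2 or drdd.

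Organs were compared first. In root against shoot, PRR5 site 2 was lost and LUX sites 2 and 3 were gained, where lost and gained mean a peak in both libraries of one group and neither of the other. That is 1 of 24 lost against 5.41% of all sites and 2 of 24 gained against 13.2%. In stem against shoot, ELF3 site 2, PRR7 site 1 and PRR5 site 2 were lost, 3 of 24 against 6.1%, and none was gained against 4.64%. In root against stem, 5 of 24 were gained (GI site 2, ELF3 site 2, LUX sites 2 and 3 and PRR7 site 1) against 13.2%, and none was lost against 3.92%. With 2 libraries against 2 the smallest exact p is 0.33, so these counts carry no test. With lists of equal length LUX site 3 was no longer gained in root, and ELF3 site 2 and PRR7 site 1 were no longer lost in stem. Without Col-0 shoot replicate 2, GI site 2 and CCA1 site 2 were also gained in root.

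LUX encodes the DNA-binding subunit of the evening complex, and its sites 2 and 3 were found mainly in root. A site was kept only when both libraries of at least 1 group had a peak. Root was the only such group at LUX sites 2 and 3, so their presence in both root libraries was fixed by that rule. LUX site 2 lay inside the gene at chromosome 3, positions 17185183 to 17185483. Its centre was 1626 bp from the nearer end of LUX and 120 bp from AT3G46650. It was listed in both root libraries, with folds of 3.30 and 3.57, and in no stem or Col-0 shoot library. It was listed in 2 further libraries, gcn5 ros1-4 replicate 2 at 2.08 and sdg2-4 replicate 1 at 2.24. LUX site 3, at positions 17187944 to 17188244, had its centre 1135 bp from LUX and 273 bp from AT3G46650. It reached folds of 3.86 and 2.72 in root, and none of the other 28 libraries had a peak there. The main LUX site, site 1, lay 243 bp from LUX and 239 bp from AT3G46630. It was open in all libraries and ranked 84.9 and 72.9 in root, 93.1 and 87.2 in stem and 81.8 and 81.5 in shoot.

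ELF3 site 2, at the lower-coordinate end of the gene that encodes the scaffold of the evening complex, ranked 49.4 and 35.2 in root against 23.0 and 3.38 in shoot. No peak was listed there in either stem library, where the lowest folds called at background were 2.16 and 1.99. ELF3 site 1, 904 bp from the same gene end, ran the other way, with ranks of 31.6 and 52.5 in root, 90.6 and 81.3 in stem and 67.4 and 72.6 in shoot. Root lay below both other organs at site 1 and above both at site 2, and neither site was open in all 30 libraries, so neither entered the test of rank.

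PRR7 site 1, at the lower-coordinate gene end, was weak wherever it was found, with ranks of 0.862 and 2.42 in root and 0.908 and 0.225 in shoot and no peak in stem. GI site 2, at the lower-coordinate end of GI, had folds of 3.84 and 3.51 in root, no peak in stem, and 3.55 in 1 of the 2 shoots. The loss of PRR5 site 2 in root and stem was one of peak width. The peak whose summit lies in site 1 was 349 and 363 bp wide in root and 288 and 348 bp in stem, against 625 and 516 bp in shoot. The wider peak reached site 2.

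For the 13 common sites, limma was fitted to normal scores of rank over all 30 libraries, with Benjamini-Hochberg adjustment over the 12881 common sites in each comparison. A normal score is the rank of a site mapped to a normal curve with an SD of 1, so near the top of a list a small step in rank is a larger step in score. In root against shoot, 1 clock site rose, against 14.4% of all common sites, and 2 fell, against 15.7%. In stem against shoot 1 rose against 12.4% and 1 fell against 13.2%, and in root against stem 1 rose against 13.1% and 1 fell against 14.3%. These counts are near the genome-wide shares.

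ELF4 site 3, beyond the higher-coordinate end of the gene for the small activator of ELF3, was the clearest. It ranked 97.8 and 93.6 in root, 83.2 and 73.8 in stem and 81.5 and 85.7 in shoot, and root did not overlap the other organs. The difference was 0.97 ± 0.24 (SE) for root against stem (limma, adjusted p = 0.00465) and 0.79 ± 0.24 for root against shoot (limma, adjusted p = 0.0166). The call against stem was lost without root replicate 1 or stem replicate 2 (limma, adjusted p = 0.0894 and 0.0528), and that against shoot without root replicate 1 or shoot replicate 1 (limma, adjusted p = 0.199 and 0.101).

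TOC1, the evening pseudo-response regulator, changed at both of its sites. Site 2, over the lower-coordinate gene end, ranked 93.8 and 92.1 in root, 89.9 and 93.6 in stem and 96.8 and 99.1 in shoot. It fell by 0.64 ± 0.22 in root (limma, adjusted p = 0.0287) and by 0.72 ± 0.22 in stem (limma, adjusted p = 0.0178) relative to the same 2 shoot libraries. Without shoot replicate 2 both calls were lost (limma, adjusted p = 0.304 for root and 0.225 for stem). The root call was also lost without either root library (limma, adjusted p = 0.0678 and 0.137), and the stem call without stem replicate 1 (limma, adjusted p = 0.128) and with −log10 q in place of fold (limma, adjusted p = 0.0592). Site 1, 956 bp below that gene end, lay nearer to another protein-coding gene, AT5G61370, at 350 bp. It ranked 39.7 and 31.5 in root, 63.7 and 67.6 in stem and 55.8 and 54.6 in shoot. It fell by 0.77 ± 0.23 in root against stem (limma, adjusted p = 0.0136), a call lost without root replicate 2 or stem replicate 2 (limma, adjusted p = 0.104 and 0.0682).

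PRR9 site 2 ranked 80.3 and 72.3 in stem against 62.8 and 44.2 in shoot and rose by 0.63 ± 0.23 (limma, adjusted p = 0.0494). PRR9 site 1 takes its value from the same wide peak in these libraries and had the same ranks, but did not pass. Site 2 held the summit of that peak in both stem libraries and in neither shoot library. It lost the call without shoot replicate 2 or either stem library (limma, adjusted p = 0.351, 0.24 and 0.0638). GI site 1 ranked 95.4 and 98.1 in root against 99.2 and 99.5 in shoot and fell by 0.62 ± 0.22 (limma, adjusted p = 0.0400). Ranked by −log10 q, the GI difference was −0.02 (limma, adjusted p = 0.927), and it was also lost without root replicate 1 or either shoot library (limma, adjusted p = 0.281, 0.0746 and 0.182). The morning genes had no site past the threshold between organs, and CCA1 site 1 ranked 98.5 and 98.4 in root, 97.8 and 97.8 in stem and 95.4 and 96.3 in shoot.

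**Figure D3:**
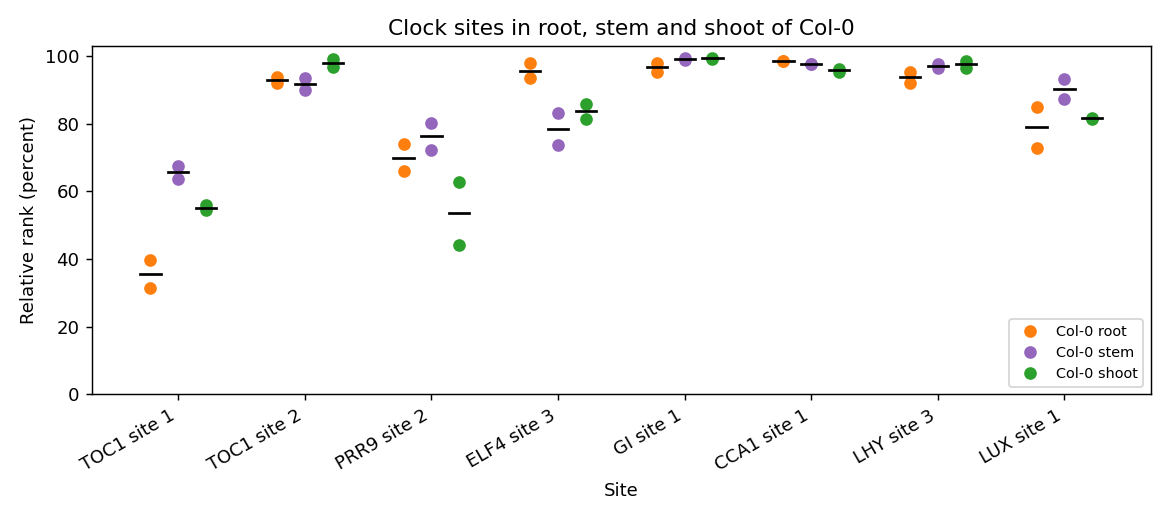
Relative rank in percent (vertical axis) of 8 clock sites in Col-0 root, stem and shoot, 2 libraries each (points) with the group mean (line). ELF4 site 3 is highest in root, at 97.8 and 93.6, and both TOC1 site 2 values of root and of stem lie below the 96.8 and 99.1 of shoot.

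The demethylase mutants were compared with Col-0 shoot to see where clock chromatin depends on active DNA demethylation. ELF3 site 1 had no peak or a weak one in all 3 of these genotypes. It lies at chromosome 2, positions 11057890 to 11058190, outside the gene. No peak was listed in ros1-4 replicate 1, in either rdd-2 library or in either drdd library. The ros1-4 replicate 2 peak had a fold of 4.05, against 7.11 and 7.81 in the 2 Col-0 shoots. In fragments at the summit it held 24, against 53 and 73 in Col-0. In the 5 libraries without a peak the lowest folds called at background lay between 1.84 and 2.19, so a peak of the Col-0 height was within reach of the lists.

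By the rule of both libraries against neither, rdd-2 and drdd each lost ELF3 site 1, 1 of 24 clock sites against 1.12% and 1.37% of all sites. Neither gained any, against 3.09% and 3.19%. In ros1-4 the 1 lost site was PRR5 site 2, against 1.61% of all sites, and none was gained against 3.17%. The PRR5 loss came from peaks of 344 and 321 bp in ros1-4 against 625 and 516 bp in Col-0, and no site was lost when a peak had to cover 150 bp of the site. These 3 comparisons share the 2 Col-0 shoot libraries. ELF3 site 2, by contrast, was listed in both ros1-4 libraries, with folds of 5.00 and 3.73 against 4.61 and 3.27 in Col-0.

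**Figure D4:**
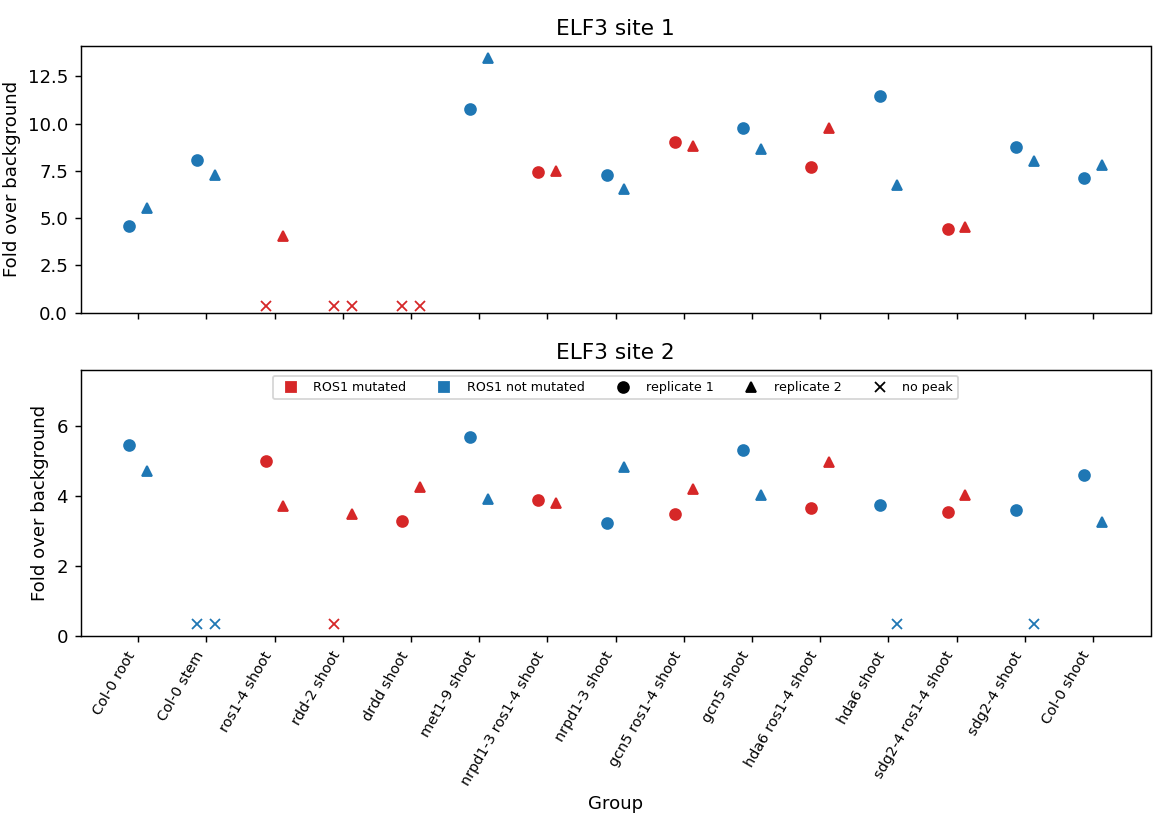
Fold over local background (vertical axis, linear) of ELF3 sites 1 and 2 in 15 groups (horizontal axis, Col-0 shoot last), circles for replicate 1, triangles for replicate 2 and crosses near 0 for no peak, with genotypes that lack ROS1 in red. Site 1 has no peak in 5 libraries and its lowest folds, 4.05 to 4.51, in ros1-4 replicate 2 and both sdg2-4 ros1-4 libraries.

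Of the 13 common clock sites, none passed the rank test in ros1-4, where 0.303% of all common sites rose and 0.761% fell. There, 1 clock site had an unadjusted p under 0.05 by limma, beside 1932 of all 12881 common sites. None passed in rdd-2 either, where 0.396% rose and 0.536% fell. Again 1 clock site had an unadjusted p under 0.05 by limma, beside 1559 of 12881. In drdd 1 of 13 fell, against 0.939%, and none rose, against 0.45%. It was LHY site 2, inside the lower-coordinate end of the LHY gene, which ranked 10.3 and 17.6 in drdd against 47.3 and 66.5 in Col-0. Its folds were 4.36 and 4.82 in drdd against 5.89 and 7.29 in Col-0, and the groups did not overlap. The difference was −1.28 ± 0.25 (limma, adjusted p = 0.00575), and the call was lost without drdd replicate 1 or Col-0 shoot replicate 2 (limma, adjusted p = 0.127 and 0.11). LHY site 1 takes its value from the same wide peak in drdd and had the same ranks, but a larger fitted error (limma, adjusted p = 0.185). LHY site 3, at the other gene end, ranked 98.7 and 98.6 in drdd against 96.6 and 98.6 in Col-0.

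The single mutants in a methylation pathway or a histone-modifying enzyme were also set against Col-0 shoot. None of the 24 clock sites was lost in met1-9 (0.699% of all sites), nrpd1-3 (1.45%), gcn5 (0.176%), hda6 (1.69%) or sdg2-4 (1.56%), shares at which less than 1 of 24 sites would be lost. When a peak had to cover 150 bp of the site ELF3 site 2 was lost in sdg2-4, and without sdg2-4 replicate 1 so were GI site 3, ELF3 site 2 and PRR5 site 2. None was gained in met1-9 (15.1%), nrpd1-3 (2.91%), hda6 (3.25%) or sdg2-4 (2.56%). In gcn5 1 of 24 was gained, against 16.7%: ELF4 site 2 at the lower-coordinate end of the gene, with folds of 3.46 and 2.85 and ranks of 1.97 and 1.05 in gcn5 and no peak in Col-0. With lists of equal length ELF4 site 2 had a peak in none of the 30 libraries, and the 1 site gained in gcn5 was CCA1 site 2. ELF4 site 2 was kept as a site only through gcn5 and gcn5 ros1-4, the groups with a peak there in both libraries. These 5 comparisons share the same 2 Col-0 libraries as the others.

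In hda6, TOC1 site 1 fell, 1 of 13 against 2.56% of common sites, and none rose against 2.93%. It ranked 27.6 and 12.3 in hda6 against 55.8 and 54.6 in Col-0, with folds of 5.94 and 3.91 against 6.36 and 6.53. The difference was −1.01 ± 0.23 (limma, adjusted p = 0.0117). The call was lost without hda6 replicate 2 (limma, adjusted p = 0.149) and without either Col-0 shoot library (limma, adjusted p = 0.0726 and 0.0521). TOC1 site 2, nearer the gene, ranked 97.4 and 98.9 in hda6 against 96.8 and 99.1 in Col-0.

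In met1-9, 1 of 13 fell, against 7.24%, and none rose, against 5.71%. CCA1 site 1, 153 bp below the lower-coordinate gene end, ranked 80.6 and 90.6 in met1-9 against 95.4 and 96.3 in Col-0 (difference −0.65 ± 0.21, limma, adjusted p = 0.0435). The fold itself was no lower, at 12.8 and 14.1 in met1-9 against 11.3 and 12.1 in Col-0. By −log10 q the difference was −0.09 (limma, adjusted p = 0.812), and without met1-9 replicate 1 or either Col-0 library the call was lost (limma, adjusted p = 0.329, 0.118 and 0.16). In gcn5, 2 of 13 fell, against 8%, and none rose, against 6.76%. GI site 1 ranked 94.3 and 97.9 in gcn5 against 99.2 and 99.5 in Col-0 (difference −0.69 ± 0.22, limma, adjusted p = 0.0416). PRR7 site 2 ranked 97.9 and 97.5 in gcn5 against 99.4 and 99.7 in Col-0 (difference −0.62 ± 0.19, limma, adjusted p = 0.0311). Both gcn5 differences turned positive when sites were ranked by −log10 q, to 0.49 and 0.31, and both calls were lost without any 1 of the 4 libraries (limma, adjusted p from 0.0583 to 0.308). The most common background of a list, 25.9 and 32.5 fragments in gcn5 against 6.60 and 8.48 in Col-0, moves with these results. Its part in them was not tested.

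In nrpd1-3 and sdg2-4 no clock site passed the rank test. None had an unadjusted p under 0.05 by limma, beside 1920 and 2371 of all 12881 common sites. There, 0.714% of all common sites rose and 0.761% fell in nrpd1-3, and 1.56% rose and 1.68% fell in sdg2-4.

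The double mutants were set against Col-0 and against ros1-4. No clock site was lost or gained against Col-0 in nrpd1-3 ros1-4 (1.53% of all sites lost and 4% gained) or hda6 ros1-4 (0.58% and 9.94%). In gcn5 ros1-4 ELF4 sites 1 and 2 were gained, 2 of 24 against 14.2%, and none was lost against 0.69%. Their folds there were 4.05 and 3.07 at site 1 and 2.90 and 3.59 at site 2. Site 1 was kept as a site through gcn5 ros1-4 alone, and site 2 through gcn5 and gcn5 ros1-4 alone. With lists of equal length neither site had a peak in any library, and CCA1 site 2 was gained in their place. In sdg2-4 ros1-4 PRR7 site 1 was lost, 1 of 24 against 1.09%, and none was gained against 9.43%. In Col-0 that weak peak had folds of 2.77 and 2.47, and with peaks of −log10 q of at least 5 alone the site was no longer counted as lost.

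Against ros1-4, gcn5 ros1-4 gained ELF4 sites 1 and 2 and PRR5 site 2, 3 of 24 against 10.6% of all sites. Both hda6 ros1-4 and sdg2-4 ros1-4 gained PRR5 site 2, 1 of 24 against 7.38% and 6.03%, where the peak was 572 and 657 bp wide in hda6 ros1-4 and 631 and 632 bp in sdg2-4 ros1-4, against 344 and 321 bp in ros1-4. None of the 3 lost a clock site, against 0.448%, 0.643% and 0.749%. In nrpd1-3 ros1-4 none was lost or gained, against 2.5% and 3.44%. These 4 comparisons share the 2 ros1-4 libraries.

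The rank test found 2 clock sites lower against Col-0 in gcn5 ros1-4, against 6.18% of common sites, and none higher, against 5.02%. GI site 1 ranked 95.8 and 94.5 in gcn5 ros1-4 against 99.2 and 99.5 in Col-0 (difference −0.83 ± 0.22, limma, adjusted p = 0.0222), and CCA1 site 1 ranked 86.5 and 85.7 against 95.4 and 96.3 (difference −0.65 ± 0.21, limma, adjusted p = 0.0468). In sdg2-4 ros1-4, 2 of 13 fell against 4.28% and none rose against 3.71%. GI site 1 ranked 91.9 and 95.5 in sdg2-4 ros1-4 against the same Col-0 values (difference −0.95 ± 0.22, limma, adjusted p = 0.0148). LUX site 1 ranked 53.9 and 58.7 in sdg2-4 ros1-4 against 81.8 and 81.5 in Col-0 (difference −0.74 ± 0.23, limma, adjusted p = 0.0463). Each of these 4 calls was lost without any 1 of its 4 libraries (limma, adjusted p from 0.0566 to 0.224). Ranked by −log10 q, the GI and CCA1 differences turned positive, at 0.28 and 0.02 in gcn5 ros1-4 and 0.26 for GI in sdg2-4 ros1-4, and that of LUX was −0.25 (limma, adjusted p = 0.543).

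No clock site passed in nrpd1-3 ros1-4 or hda6 ros1-4 against Col-0. By limma 0 and 3 clock sites had an unadjusted p under 0.05, beside 1940 and 2844 of all 12881 common sites. In those comparisons 0.877% and 2.48% of all common sites rose and 0.784% and 1.93% fell. None passed in the 4 double mutants against ros1-4. At an unadjusted p under 0.05 by limma there were 2 in nrpd1-3 ros1-4, gcn5 ros1-4 and sdg2-4 ros1-4 and 3 in hda6 ros1-4. Between 2254 and 2633 of all 12881 common sites were under 0.05 in these 4 comparisons. The shares of all common sites that rose there lay between 1.98% and 2.7%, and those that fell between 1.27% and 2.4%.

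The design crosses ros1-4 with wild type and 4 mutations, which allows ROS1 loss to be tested over 5 backgrounds by exchanging labels within each (two-sided exact permutation, 7776 arrangements, smallest possible p = 0.000257). On presence, none of 10 clock sites and none of 22053 sites passed, although 1179 of the latter had an unadjusted p under 0.05 and none of the former did. On rank, none of the 13 common clock sites passed, against 1.63% of common sites higher and 2.62% lower with ROS1 loss.

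In these ranks 4 of 13 clock sites had an unadjusted p under 0.05, near the share of all common sites, 3108 of 12881. Each of these 4 sites was lower with ROS1 loss in 5 of 5 backgrounds. Their mean differences in normal score were −0.37 for GI site 1 (exact permutation, p = 0.00231, adjusted p = 0.0504), −0.32 for CCA1 site 1 (p = 0.00386, adjusted p = 0.0630), −0.25 for LUX site 1 (p = 0.00360, adjusted p = 0.0606) and −0.24 for TOC1 site 2 (p = 0.00437, adjusted p = 0.0658). GI site 1 passed when a peak had to cover 150 bp of the site (exact permutation, adjusted p = 0.0484). Without the hda6 and sdg2-4 backgrounds the differences were −0.22 for GI site 1 (exact permutation, p = 0.0833, adjusted p = 0.354), −0.15 for CCA1 site 1 (p = 0.130, adjusted p = 0.416), −0.22 for LUX site 1 (p = 0.0463, adjusted p = 0.283) and −0.24 for TOC1 site 2 (p = 0.0833, adjusted p = 0.354). The other common sites lay on both sides of 0, with ELF4 site 3, PRR5 site 1 and TOC1 site 1 above it.

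ELF3 site 1 is outside that test, since 5 lists lack it. In the backgrounds its ranks with ros1-4 were 49.9 and 49.3 in nrpd1-3 ros1-4 against 62.9 and 49.1 in nrpd1-3. They were 54.1 and 50.4 in gcn5 ros1-4 against 71.0 and 70.1 in gcn5, and 40.0 and 66.9 in hda6 ros1-4 against 86.0 and 64.4 in hda6. In sdg2-4 ros1-4 they were 5.01 and 5.54, against 69.1 and 75.9 in sdg2-4. The drop was thus deep in wild type and in sdg2-4, where peak width was 181 and 194 bp in sdg2-4 ros1-4 against 377 and 415 bp in sdg2-4, and groups overlapped in nrpd1-3 and hda6. With absent peaks at rank 0, an alternative added after the data were seen, the mean rank over the 5 backgrounds was 32.7 with ROS1 loss and 68.9 without it. That difference of −36.2 missed the threshold (exact permutation, p = 0.00154, adjusted p = 0.0681), beside 0.455% of 38232 sites lower and 0.178% higher in the same test. Without the hda6 and sdg2-4 backgrounds it was −30.6 (exact permutation, p = 0.0278, adjusted p = 0.337). In these backgrounds the single mutants are numbered 54 to 58 and the double mutants 62 to 65. The gcn5 background, which was kept, also has separate numbers, 76 and 77 for gcn5 and 78 and 79 for gcn5 ros1-4.

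**Figure D5:**
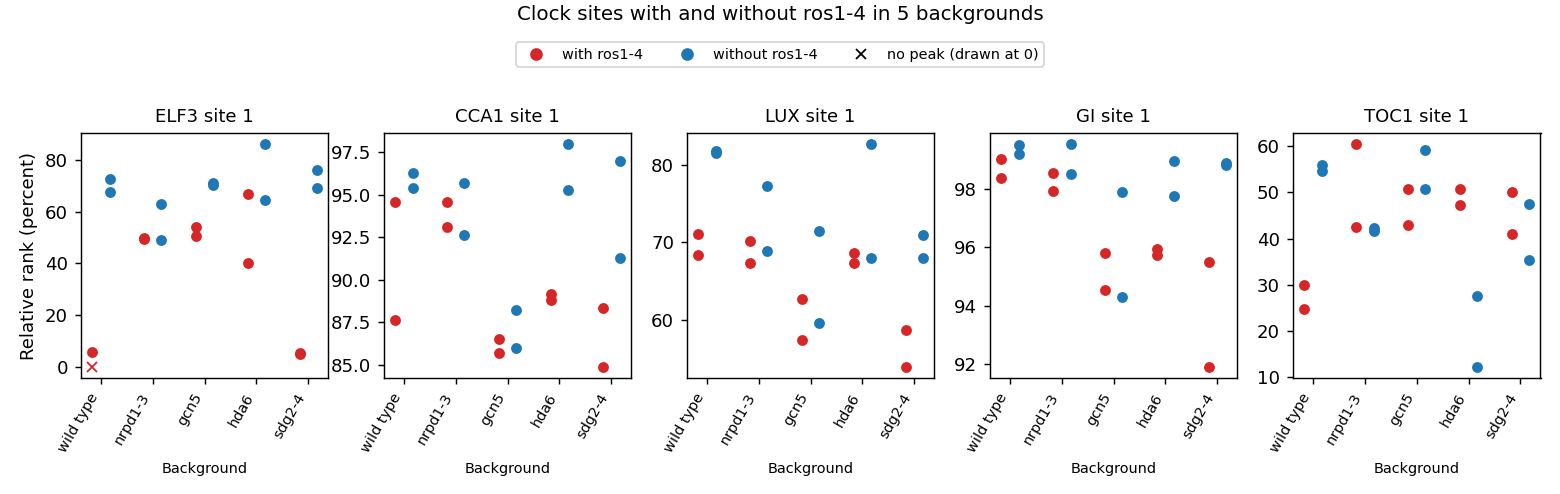
Relative rank in percent (vertical axes, a separate range in each panel) of 5 clock sites with ros1-4 (red, left of each pair) and without it (blue), 2 libraries each, in wild type and 4 mutant backgrounds, with a cross at 0 for no peak. ELF3 site 1 is at or below 5.69 in ros1-4 and sdg2-4 ros1-4 and at 40.0 or above in all other libraries shown.

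TOC1 site 1, 350 bp from AT5G61370 and 956 bp from TOC1, was the one clock site past the threshold for a difference with ROS1 loss between backgrounds. It ranked 24.8 and 29.9 in ros1-4 against 55.8 and 54.6 in Col-0, but 50.7 and 47.3 in hda6 ros1-4 against 27.6 and 12.3 in hda6. The difference between these differences was 1.59 ± 0.32 (limma interaction, adjusted p = 0.0228), beside 0.318% of common sites higher in this test and 0.0776% lower. It was lost on leaving out any 1 of the 8 libraries except hda6 replicate 1 (limma, adjusted p from 0.0539 to 0.107). The fall in ros1-4 alone was −0.73 ± 0.23 and did not pass (limma, adjusted p = 0.114). The same contrast was also positive in nrpd1-3 (0.97), gcn5 (0.53) and sdg2-4 (0.84), short of the threshold (limma interaction, adjusted p = 0.193, 0.660 and 0.405). All of these contrasts share the Col-0 shoot and ros1-4 libraries. Library numbers were 54 and 57 in hda6 and 62 and 63 in hda6 ros1-4.

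The sites of different clock genes did not move as a block across libraries. Over the 36 pairs of 9 strongest sites open in all libraries, the Spearman correlation of rank had a median of 0.06, and 22 pairs were above 0. CCA1 and LUX were most alike, at 0.77, followed by CCA1 and GI at 0.61, and ELF4 and GI were least alike, at −0.44. The 30 libraries behind these values share groups, depth and organ. Among the 12881 common sites, clock sites left out, the one most like GI site 1 was near ACR8 (AT1G12420), with 0.89. This is the highest of many correlations, and the highest for each of the other strongest sites lay between 0.62 and 0.91.

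At the 29 other clock genes, picked with earlier results known, few sites differed between organs. In root against shoot 2 of 67 sites were lost (at ELF4-L3 and LWD1), against 5.41% of all sites, and 3 gained (ELF4-L2, JMJD5 and GRP8), against 13.2%. In stem against shoot 3 were lost (ELF4-L2, ELF4-L3 and CHE), against 6.1%, and 3 gained, 2 at BOA and 1 at JMJD5, against 4.64%. In root against stem 3 were lost (2 at BOA and 1 at LWD1), against 3.92%, and 4 gained (2 at ELF4-L2, 1 at CHE and 1 at GRP8), against 13.2%. These counts are near or below the shares of all sites. BOA is a close relative of LUX, and its site 3 had folds of 3.22 and 3.59 in stem and no peak in the other 28 libraries. BOA site 3 was thus kept as a site through stem alone. LWD1, a WD-repeat protein that promotes CCA1 and PRR expression, had a site 1 with no peak in root, folds of 4.63 and 4.60 in stem and folds of 7.53 and 8.02 in shoot.

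In the mutants the counts at these genes ran from 0 to 4 lost and from 0 to 8 gained of 67 against Col-0. The 4 lost were in drdd, where 1.37% of all sites were lost, and the 8 gained in gcn5, where 16.7% were gained. XCT, a nuclear regulator of clock period, lost its site 1 in ros1-4, rdd-2 and drdd, where 1.61%, 1.12% and 1.37% of all sites were lost. That site, at chromosome 2, positions 9064294 to 9064594, had no peak in these 6 libraries and folds of 6.06 and 4.85 in Col-0 shoot. Other genotypes that lack ROS1 did have the peak, with folds of 3.37 and 3.17 in gcn5 ros1-4, 5.63 and 4.97 in hda6 ros1-4 and 4.97 and 4.04 in sdg2-4 ros1-4, and in nrpd1-3 ros1-4 it was listed in 1 library at 3.26. ZTL, the F-box protein that GI stabilises, gained all 3 of its sites in met1-9 and 2 in nrpd1-3, and 1 in each other mutant genotype except hda6 and sdg2-4, which gained none. Its site 1 had folds of 8.09 and 9.92 in met1-9, 6.23 and 6.76 in nrpd1-3 and 6.19 and 5.50 in nrpd1-3 ros1-4, and no peak in Col-0 shoot. ELF4-L3 site 3 was listed in met1-9 alone, with folds of 8.13 and 8.37, and so was kept as a site through met1-9 alone. XCT, the ZTL site and this site were singled out after their values were seen.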

How the data were processed

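Nuclei were treated with Tn5 and libraries amplified by 10 PCR cycles, per the labels' protocols. The submitters' processing notes name FastQC, BWA, SAMtools, GATK and MACS2 and the build TAIR10, without versions. The authors' deposited score equals −log10 q times 10, cut to a whole number. The fold deposited by the authors is a ratio of pileup to local background, and the −log10 p and −log10 q values deposited by the authors come from the peak caller. Depth is not stated, so the fragment pileup and background were recovered from fold and −log10 p, which worked for 91.0% to 99.9% of peaks in each list. No reads were analysed. Where replicates are not stated to be separate plants, p-values measure the spread between libraries, which may be technical.

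Sites were 301-bp windows around summits, taken in order of within-list percentile of −log10 q, and kept when both libraries of 1 group had a peak. A peak was present with an overlap of at least 1 bp. Gene positions came from RefSeq's table for TAIR10.1, where 59 of 59 listed genes matched. Its fit to the files was checked: 68.6% of site centres lay outside protein-coding genes, against 40.0% to 44.4% after shifts. Ranks were compared with limma 3.58.1 in R 4.3.3 (15 residual degrees of freedom) and an exact permutation test, both tested on simulated data. Replicate numbers did not pair libraries (correlations from −0.32 to 0.37 over 105 pairs of groups). The members and gene lists were chosen with earlier results of these data known. All lost, gained and past-threshold clock sites are named. No genome sequence was used here.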

Additional observations from a re-analysis of the deposited data

Results flagged for a closer look

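TOC1 site 1 was picked out because its difference with ROS1 loss was 1.59 higher in normal score in hda6 than in wild type (limma interaction, adjusted p = 0.0228). Its ranks stand in the report, and the pattern rests on 2 libraries a group.

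GI site 3 lies beyond the higher-coordinate end of GI and 11 bp from the ribosomal protein gene PFL. It was picked out because its ranks moved in opposite directions, without overlap, with ROS1 loss in wild type and in another background. The opposite directions were thus fixed by that choice. The site is weak, with folds of 3.29 and 2.85 in Col-0 shoot. It ranked 6.23 and 13.3 in ros1-4 against 4.13 and 1.09 in Col-0. In nrpd1-3 ros1-4 it ranked 1.77 and 1.45 against 11.3 and 7.48 in nrpd1-3, a difference between differences of −14.9 rank points. In gcn5 ros1-4 it ranked 4.90 and 5.32 against 13.9 and 7.71 in gcn5, or −12.8 points. In hda6 ros1-4 it ranked 1.23 and 2.95 against 3.41 and 12.3 in hda6, or −12.9 points. In sdg2-4 ros1-4 it ranked 9.84 and 6.27, against 6.21 and no peak in sdg2-4. Over all 5 backgrounds, with absent peaks at rank 0, the mean difference was −1.43 (exact permutation, p = 0.511, adjusted p = 0.75). The 3 differences between backgrounds were not tested, since the site had a peak in 27 of 30 libraries.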

How the results depend on the processing

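The count of clock sites open in all 30 libraries was 13. It was 3 for the gene without its flank, where CCA1, PRR5 and PRR9 have no site and fewer than 24 sites remain. It was 7 with the summit inside the site, an alternative added after the data were seen. No share of all sites was computed for these 2 settings, so they do not show whether 54.2% against 30.2% holds. Lost and gained sites, main count first, with lists cut to equal length were: root against shoot 3 and 2, stem against shoot 3 and 1, root against stem 5 and 3, ros1-4 1 and 2, met1-9 0 and 1, hda6 0 and 1, gcn5 ros1-4 2 and 1, hda6 ros1-4 0 and 1, sdg2-4 ros1-4 1 and 2, and against ros1-4, nrpd1-3 ros1-4 0 and 1, gcn5 ros1-4 3 and 2 and hda6 ros1-4 1 and 2. With peaks covering 150 bp of the site they were 0 in ros1-4, 2 in gcn5, 1 in sdg2-4 and 0 in hda6 ros1-4 against ros1-4, and with −log10 q of at least 5 it was 0 in sdg2-4 ros1-4. Ranked by −log10 q, sites past the threshold numbered 1 in stem against shoot, 0 in met1-9, 1 in gcn5 and 0 in gcn5 ros1-4 and sdg2-4 ros1-4. In that setting the gcn5 differences reversed to 0.49 (GI site 1) and 0.31 (PRR7 site 2), those of gcn5 ros1-4 to 0.28 (GI site 1) and 0.025 (CCA1 site 1), and that of sdg2-4 ros1-4 to 0.26 (GI site 1). The cause was not tested.

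A replicate block, not used in the main fits, gave 1 site in stem against shoot (main 2, since PRR9 site 2 came to a limma adjusted p of 0.0503). It gave 2 sites in met1-9 (main 1) and 1 in hda6 ros1-4 (main 0). It left the ROS1 permutation counts at 0, with adjusted p from 0.117 to 0.148 (exact permutation) for GI site 1, CCA1 site 1, LUX site 1 and TOC1 site 2. An overlap of 150 bp gave 1 clock site in the ROS1 rank test. Leaving out 1 library at a time, with the lone library assumed to vary like the others, moved lost and gained counts to 3 to 5 in root against shoot, 3 to 4 in stem against shoot and 5 to 7 in root against stem. Against Col-0 they ran 1 to 3 in ros1-4 and rdd-2, 1 to 2 in drdd, 0 to 1 in met1-9, nrpd1-3 and hda6, 1 to 3 in gcn5, 0 to 3 in sdg2-4, 0 to 2 in nrpd1-3 ros1-4 and hda6 ros1-4, 2 to 4 in gcn5 ros1-4 and 1 to 3 in sdg2-4 ros1-4. Against ros1-4 they ran 0 to 1 in nrpd1-3 ros1-4, 3 to 4 in gcn5 ros1-4, 1 to 2 in hda6 ros1-4 and 1 to 3 in sdg2-4 ros1-4. The counts in root against shoot, ros1-4, rdd-2, gcn5, nrpd1-3 ros1-4, gcn5 ros1-4, hda6 ros1-4 and sdg2-4 ros1-4 were highest without Col-0 shoot replicate 2, that in sdg2-4 without sdg2-4 replicate 1 and that in rdd-2 also without rdd-2 replicate 2. Counts past the rank threshold ran 0 to 2 in root against shoot, 0 to 3 in stem against shoot, 0 to 2 in root against stem, 0 to 1 in drdd and hda6 and 0 to 4 in met1-9, and were 0 in all other comparisons. For single sites named in the report, 56 such fits lost the threshold and 16 kept it, all in the same direction. Of the other settings 41 kept it, 5 lost it and 5 reversed. Weak peaks of shallow lists cannot be told from absent ones.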
